A study of Mus musculus with 33 samples.

Results

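The 9 genes described here encode the main transmembrane receptors through which activins, bone morphogenetic proteins (BMPs) and TGF-beta signal. They were taken by symbol, as the rows named Acvr1, Acvr1b, Acvr2a, Acvr2b, Bmpr1a, Bmpr1b, Bmpr2, Tgfbr1 and Tgfbr2, from a table of 35321 genes counted in 33 single mouse oocytes. The set was chosen by the Acvr1 transcript abundance in these same oocytes, which was very low in Nlrp5-/- SN oocytes, so the levels of Acvr1 are given as a description and carry no test.

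Receptors of this family work as complexes of type I and type II serine/threonine kinases. The type II receptors (Acvr2a, Acvr2b, Bmpr2, Tgfbr2) bind ligand and phosphorylate the type I receptors (Acvr1, Acvr1b, Bmpr1a, Bmpr1b, Tgfbr1), which in turn phosphorylate SMAD proteins. Acvr1, Bmpr1a and Bmpr1b act on SMAD1, SMAD5 and SMAD9, whereas Acvr1b and Tgfbr1 act on SMAD2 and SMAD3. In the ovary the oocyte secretes ligands of this family, GDF9 and BMP15, that act on the granulosa cells around it, and granulosa cells secrete activins and inhibins.

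All oocytes were germinal vesicle (GV) oocytes, still arrested in meiotic prophase, from mice aged 3 weeks on a C57BL6/Babr background. The study states that hormones were not given, in its account of oocytes isolated for staining and proteomics. Nlrp5 encodes a protein of the subcortical maternal complex, and the mutant allele is a short CRISPR/Cas9 deletion kept as 1 line. There were 10 Nlrp5+/+, 16 Nlrp5+/- and 7 Nlrp5-/- oocytes. Nlrp5-/- and Nlrp5+/- females were littermates, while Nlrp5+/+ females came mostly from the originating colony.

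Each oocyte also has a stage in the study, non-surrounded nucleolus (NSN) or the more mature surrounded nucleolus (SN), which the labels do not hold and which the study inferred from marker genes in the same RNA. The stages were read from the study's staging plots, which for Nlrp5+/- hold more oocytes of each stage than the study's text and legend count, and the difference could not be resolved from the sources used here. None of the 9 receptors is among those markers. The 10 Nlrp5+/+ oocytes were 4 NSN and 6 SN, the 16 Nlrp5+/- oocytes 9 NSN and 7 SN, and the Nlrp5-/- oocytes 4 NSN and 2 SN. The remaining Nlrp5-/- oocyte, number 15, was not staged. The labels name no mouse, so the oocytes of 1 genotype and stage count as 1 sample, every SD below is the spread between cells, and no p-value was computed.

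Depth ranged from 4223595 to 15573360 counts on genes per oocyte. Nlrp5 itself followed the labels, with 10114 to 29131 normalized counts (counts divided by the size factor of the library) in Nlrp5+/+, 5062 to 13472 in Nlrp5+/- and 1362 to 2556 in Nlrp5-/- oocytes. All 10 oocyte markers were detected in every group, and their summed abundance was between 22539 and 40987 CPM (counts scaled to the total of the library) in each oocyte. Libraries are named with a first index that was never shared between genotypes, so that index and genotype cannot be told apart. Of 36 pairs of receptors, 0 shared any stretch of 50 bases between their annotated transcripts, so reads at least that long cannot match more than 1 of them.

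The receptors spanned a wide range of transcript abundance in wild-type oocytes. Per kilobase of annotated exon, mean normalized counts in Nlrp5+/+ SN oocytes were 281 ± 74.7 (SD, n = 6) for Bmpr1b, which pairs with BMP ligands as a type I receptor. Bmpr2, the type II receptor for BMPs and for BMP15 and GDF9, followed at 53.9 ± 17.4 per kilobase, then Acvr1b at 42.4 ± 5.496, Bmpr1a at 37.9 ± 12.7 and Tgfbr1 at 20.7 ± 9.50. Acvr2a stood at 10.1 ± 3.90, Acvr1 at 5.04 ± 2.32 and Acvr2b at 3.39 ± 1.25 per kilobase. Tgfbr2, the type II receptor for TGF-beta, was last at 0.146 ± 0.233.

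Not every step of that order exceeded the spread between oocytes. Bmpr1b, from 183 to 376 per kilobase, lay clear of Bmpr2, whose highest oocyte was at 81.8. From Bmpr2 down to Acvr2b each receptor overlapped the next in the order, and only Tgfbr2 lay clear below. At the NSN stage Bmpr1b also led, at 192 ± 35.4 per kilobase (n = 4), but Tgfbr1 was next at 78.96 ± 33.6, ahead of Acvr1b at 73.1 ± 15.3, Bmpr1a at 63.8 ± 20.0 and Bmpr2 at 29.6 ± 10.2, and the ranges of Tgfbr1, Acvr1b and Bmpr1a overlapped. Exon lengths came from a later annotation than the count table, so the order depends on how well those models match the transcripts of oocytes.

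Acvr1 (ENSMUSG00000026836), the type I receptor also known as ALK2, lies on chromosome 2 from 58388644 to 58567157 on the minus strand in GRCm38. In Nlrp5+/+ NSN oocytes it had 50.4, 16.03, 96.3 and 56.2 normalized counts, with a mean of 54.7 ± 32.9 (SD, n = 4). The 4 Nlrp5-/- NSN oocytes had 0, 9.01, 11.05 and 9.89, with a mean of 7.49 ± 5.06. The Nlrp5+/- NSN oocytes lay between 13.2 and 123, with a median of 33.9 (n = 9). Every Nlrp5-/- NSN oocyte was thus below every NSN oocyte of the other genotypes, as were 3.14% of genes against Nlrp5+/+ and 0.686% against Nlrp5+/-.

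At the SN stage the Nlrp5-/- oocytes had 1.35 normalized counts in oocyte 7, which is 1 read, and 0 in oocyte 31. The 6 Nlrp5+/+ SN oocytes ranged from 17.7 to 60.2 with a median of 27.5, and the 7 Nlrp5+/- SN oocytes from 1.02 to 48.1 with a median of 20.0. Both Nlrp5-/- SN oocytes lay below all Nlrp5+/+ SN oocytes, as they did for 7.85% of genes. The overlap with Nlrp5+/- came from oocyte 46 alone, which also had 1 read. The count of 0 in oocyte 31 allows up to 2.17 normalized counts, and that in oocyte 13 at the NSN stage up to 5.54, by counting error only.

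**Figure D1:**
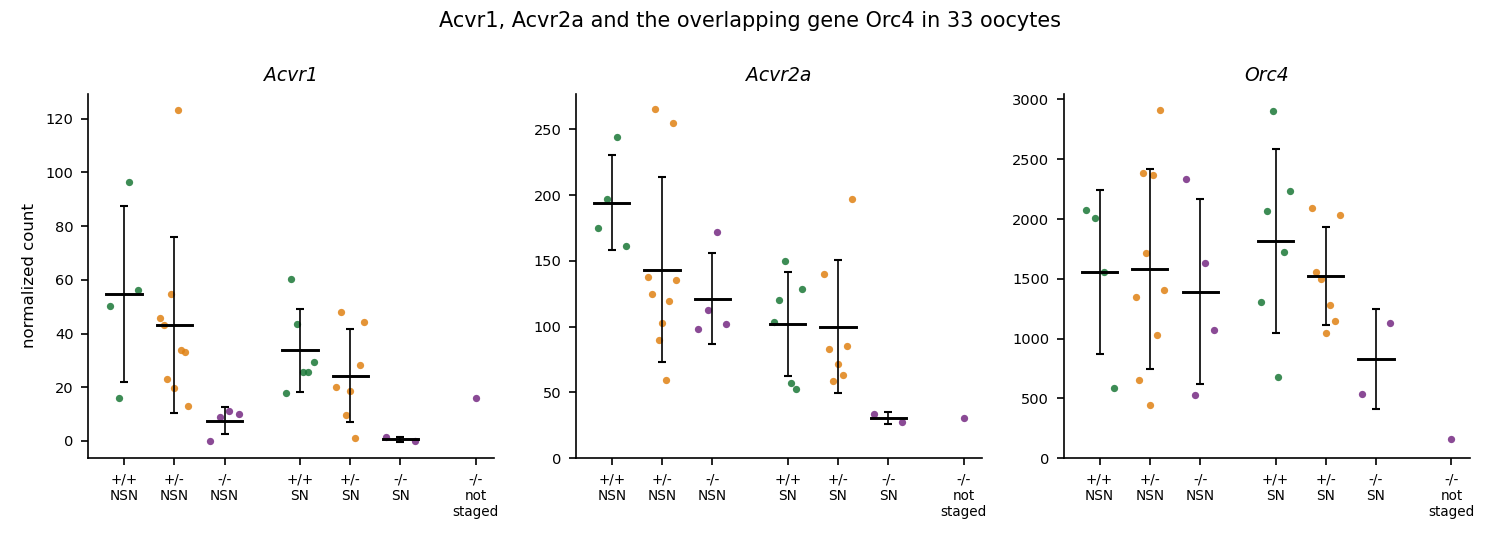
Normalized counts (linear axes, different for each gene) of Acvr1, Acvr2a and Orc4, with 1 point for each of the 33 oocytes, by Nlrp5 genotype and stage; bars are means and whiskers are SDs over oocytes. Acvr1 lies at 0 to 11.05 in staged Nlrp5-/- oocytes, Acvr2a at 27.5 and 33.7 in the SN ones, and Orc4, which overlaps the end of Acvr2a, at 537 and 1127 in that pair.

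The difference of Acvr1 between Nlrp5-/- and Nlrp5+/+ means was -2.72 in NSN and -4.37 in SN oocytes on the log2(normalized count + 1) scale. Against Nlrp5+/- it was -2.38 and -3.92. In summed counts, Acvr1 had 35 against 283 at the NSN stage, 6.71-fold lower per unit of size factor (95% exact interval for counting error only, 4.71 to 9.83). At the SN stage it had 1 against 255, a ratio of 63.9 with an interval from 11.4 to 2535, since it rests on 1 read. The difference on the log2 scale is smaller than this ratio because of the pseudocount of 1.

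Without regard to stage, which is the comparison the labels alone allow, Acvr1 had 0 to 15.97 normalized counts in 7 Nlrp5-/- oocytes and 16.03 to 96.3 in 10 Nlrp5+/+ oocytes, with means of 6.75 ± 6.31 and 42.1 ± 24.8 and a log2 difference of -2.48. The highest Nlrp5-/- value, in the unstaged oocyte 15, was 15.97 and the lowest Nlrp5+/+ value 16.03, so the groups only just failed to overlap. Of 14104 genes, 2.24% were past 2-fold and lower in this comparison, and 0.369% were lower with no overlap. The rule that chose the receptors used the Acvr1 values, and nothing is read from these shares for Acvr1. Among the other receptors none was free of overlap here.

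The low Acvr1 counts came from all 3 library index sets that hold Nlrp5-/- oocytes. They were 1.35 in the set of 1 oocyte, 0 to 15.97 in the first set of 3 and 0 to 11.05 in the second. In the 3 Nlrp5+/+ sets the lowest oocytes had 17.7, 16.03 and 25.8. In the 4 Nlrp5+/- sets they had 9.72, 1.02, 19.7 and 13.2.

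Nlrp5+/- oocytes did not separate from Nlrp5+/+ oocytes in Acvr1. The log2 difference of the means was -0.33 for NSN and -0.46 for SN oocytes, well inside the spread of both groups. Among NSN oocytes it moved between -0.70 and 0.08 when single oocytes were left out, the extremes being without oocyte 61 and without Nlrp5+/+ oocyte 79.

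Acvr2a (ENSMUSG00000052155), a type II receptor that binds activins and several BMPs, lies 9.62 Mb from Acvr1 on the same chromosome, from 48814109 to 48903269 on the plus strand. The 2 Nlrp5-/- SN oocytes had 33.7 and 27.5 normalized counts. In the 6 Nlrp5+/+ SN oocytes Acvr2a ranged from 52.7 to 150 with a median of 112, and in the 7 Nlrp5+/- SN oocytes from 58.3 to 197 with a median of 82.9. Both Nlrp5-/- SN oocytes were below every SN oocyte of the other genotypes, as were 7.85% of genes against Nlrp5+/+ and 5.81% against Nlrp5+/-. The log2 difference was -1.70 from Nlrp5+/+ and -1.67 from Nlrp5+/-. Summed counts were 63 against 808 in Nlrp5+/+, 3.22-fold lower per unit of size factor (95% interval, 2.49 to 4.22).

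Among NSN oocytes the genotypes overlapped for Acvr2a. Nlrp5-/- NSN oocytes had 97.8, 113, 172 and 102 normalized counts of Acvr2a, against 175, 197, 244 and 161 in Nlrp5+/+ NSN oocytes, so that 1 Nlrp5-/- oocyte reached the wild-type range. The log2 difference there was -0.68. Oocyte 15 had 30.3, close to the SN Nlrp5-/- oocytes. Without regard to stage the log2 difference was -0.75, under 2-fold.

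The last 446 bases of Acvr2a, from 48902824 to 48903269, overlap Orc4 on the opposite strand, which encodes a subunit of the origin recognition complex. The libraries were not stranded, so reads in the overlap cannot be assigned to either gene. Orc4 had far more reads, 1498 ± 715 normalized counts over the 33 oocytes, and it too was lower in Nlrp5-/- SN oocytes, at 537 and 1127 against 683 to 2902 in Nlrp5+/+ SN oocytes, a log2 difference of -1.13. Oocyte 15 had the lowest Orc4 of all, 161. Over the 33 oocytes Acvr2a and Orc4 had Pearson's r = 0.50 and Spearman's rho = 0.47 on the log2 scale, given as a description of cells that share libraries and depth. The part of Orc4 reads in the Acvr2a counts was not tested. The other genes that overlap a receptor, which lie across Acvr1, Bmpr1a, Acvr2b and Bmpr2, had at most 29 summed counts over all oocytes.

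Among the receptors that passed the filter, none other than Acvr1 and Acvr2a was past 2-fold between genotypes at either stage. Of the 8 receptors that averaged 10 or more normalized counts, 1 was past 2-fold in Nlrp5-/- against Nlrp5+/+ NSN oocytes, Acvr1, where 8.14% of 13833 genes were. Among SN oocytes 2 of 8 were, Acvr1 and Acvr2a, where 10.1% of 13351 genes were. Against Nlrp5+/- oocytes the same receptors were past 2-fold, 1 of 8 for NSN and 2 of 8 for SN, beside 6.5% and 8.91% of genes. These contrasts share the Nlrp5-/- oocytes. The set was chosen by the Acvr1 values, so the place of Acvr1 in these counts was fixed in advance. Nothing is read from the counts against the shares of all genes. Apart from Acvr1, only Acvr2a was past 2-fold at the SN stage and no receptor was at the NSN stage. In Nlrp5+/- against Nlrp5+/+ oocytes 0 of 8 NSN and 0 of 8 SN values were past 2-fold, beside 3.12% and 1.95% of all genes.

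The median log2 difference over the 8 receptors was -0.43 for Nlrp5-/- against Nlrp5+/+ at the NSN stage and -0.11 for SN oocytes, beside 0.00099 and -0.0016 over all genes. For Nlrp5+/- it was -0.43 and 0.08, beside 0.040 and -0.0051. Receptor medians below 0 at the NSN stage were therefore seen in both mutant genotypes, which were compared with the same 4 Nlrp5+/+ oocytes.

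**Figure D2:**
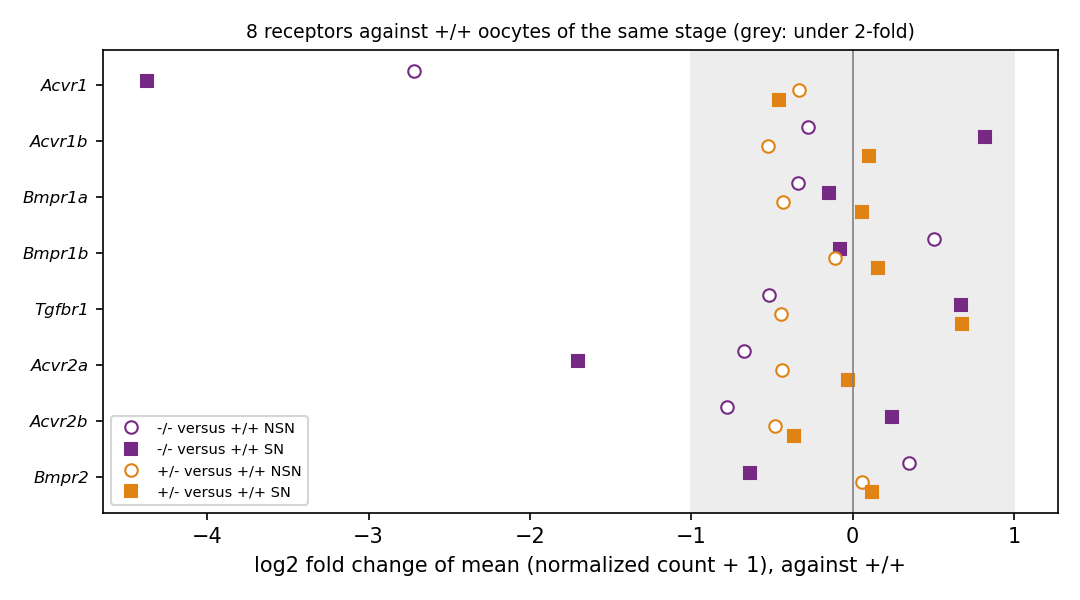
Log2 difference of mean normalized counts (pseudocount 1) from Nlrp5+/+ oocytes of the same stage for the 8 receptors that passed the filter, open circles for NSN and filled squares for SN, purple for Nlrp5-/- and orange for Nlrp5+/-. Acvr1 at both stages and Acvr2a at the SN stage in Nlrp5-/- lie outside the grey band of under 2-fold.

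Acvr1b (ENSMUSG00000000532), also known as ALK4 and the main type I receptor for activin, was higher in Nlrp5-/- than in Nlrp5+/+ SN oocytes. The Nlrp5-/- SN oocytes 7 and 31 had 425 and 287 normalized counts, above all 6 Nlrp5+/+ SN oocytes, which lay between 161 and 235, for a log2 difference of 0.82. That is under 2-fold on average, but 1.07 without oocyte 31 and 0.51 without oocyte 7, and 7.24% of genes were higher with no overlap in this contrast. Acvr1b in Nlrp5+/- SN oocytes reached 337, so the Nlrp5-/- pair did not stand clear of that genotype. At the NSN stage Nlrp5-/- oocytes had 241 to 319, all below the Nlrp5+/+ mean of 347 ± 72.8 but overlapping its range, for a log2 difference of -0.27. The Acvr1b differences had opposite signs only against Nlrp5+/+ oocytes. Against Nlrp5+/- they were 0.25 for NSN and 0.71 for SN, both with overlap.

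Bmpr1b (ENSMUSG00000052430), also known as ALK6, had the most reads of the set in every group. It ranged from 977 to 1536 normalized counts in Nlrp5+/+ NSN oocytes and from 949 to 2657 in Nlrp5-/- NSN oocytes, with a log2 difference of 0.50. Among SN oocytes the means were 1954 ± 519 and 1853 ± 121, a log2 difference of -0.08 that was 0.02 without Nlrp5+/+ oocyte 69. Genotypes overlapped at both stages.

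Bmpr1a (ENSMUSG00000021796), also known as ALK3, had means of 495 ± 155 in Nlrp5+/+ and 391 ± 50.1 in Nlrp5-/- NSN oocytes, with 294 ± 98.3 and 266 ± 7.24 for SN oocytes. The log2 differences were -0.34 and -0.15, within the spread between oocytes. In Nlrp5+/- oocytes it varied from 71.8 to 960 at the NSN stage.

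Tgfbr1 (ENSMUSG00000007613), also known as ALK5, is the type I receptor for TGF-beta and also serves GDF9. Its 2 Nlrp5-/- SN oocytes lay far apart, at 99.8 and 338 normalized counts, against 79.5 to 223 in Nlrp5+/+ SN oocytes. The log2 difference of 0.67 turned to -0.46 without oocyte 31 and rose to 1.29 without oocyte 7, so no direction can be given. At the NSN stage it was -0.52, with overlap.

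Bmpr2 (ENSMUSG00000067336) had 559 and 691 normalized counts in the Nlrp5-/- SN oocytes, in the lower part of the Nlrp5+/+ SN range of 657 to 1477 or below it, for a log2 difference of -0.64. At the NSN stage it ranged from 288 to 1240 in Nlrp5-/- and from 267 to 683 in Nlrp5+/+ oocytes. The log2 difference of 0.35 turned to -0.11 without oocyte 13 and was 0.60 without oocyte 14, so no direction can be given.

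Acvr2b (ENSMUSG00000061393), the second activin type II receptor, was low throughout. It had 18.9 to 42.5 normalized counts in Nlrp5-/- NSN oocytes and 40.5 to 74.1 in Nlrp5+/+ NSN oocytes, a log2 difference of -0.78 with a narrow overlap. Nlrp5+/- NSN oocytes had 17.1 to 70.7, a range that holds all Nlrp5-/- NSN values, and the difference from them was -0.29. Nlrp5+/- differed from Nlrp5+/+ by -0.48. The SN values of 52.6 and 37.6 in Nlrp5-/- oocytes lay inside the Nlrp5+/+ SN range of 18.7 to 53.8. Oocyte 15 had 120, the highest Acvr2b of all 33.

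Tgfbr2 (ENSMUSG00000032440) was at 0 in 20 of 33 oocytes and had 86 counts in all, so it did not pass the filter in any comparison and entered no count of receptors past 2-fold. Its highest values were 17.6 in Nlrp5+/- oocyte 61 and 15.9 and 12.6 in the Nlrp5-/- NSN oocytes 14 and 29. In NSN oocytes it had 36 summed counts in Nlrp5-/-, 5 in Nlrp5+/+ and 24 in Nlrp5+/-. Per unit of size factor this was 8.68-fold that of Nlrp5+/+ (95% interval for counting error only, 3.39 to 28.3) and 3.06-fold that of Nlrp5+/- (1.78 to 5.37). Nlrp5-/- oocyte 13 was at 0, so the ranges of 0 to 15.9 in Nlrp5-/-, 0 to 3.36 in Nlrp5+/+ and 0 to 17.6 in Nlrp5+/- overlapped. All 5 counts of the Nlrp5+/+ group came from oocyte 70, and 13 of the 24 of Nlrp5+/- from oocyte 61, so these ratios rest on single oocytes. The log2 difference from Nlrp5+/+ was 2.28, but 1.78 without oocyte 14 and 3.16 without oocyte 70, and that from Nlrp5+/- was 1.12, but 0.61 without oocyte 14 and 1.94 without oocyte 61. Oocytes 14 and 61 were also high in theca markers, given further on, whose part in these values was not tested. The 2 Nlrp5-/- SN oocytes were at 0, which allows up to 4.05 and 2.17 normalized counts.

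**Figure D3:**
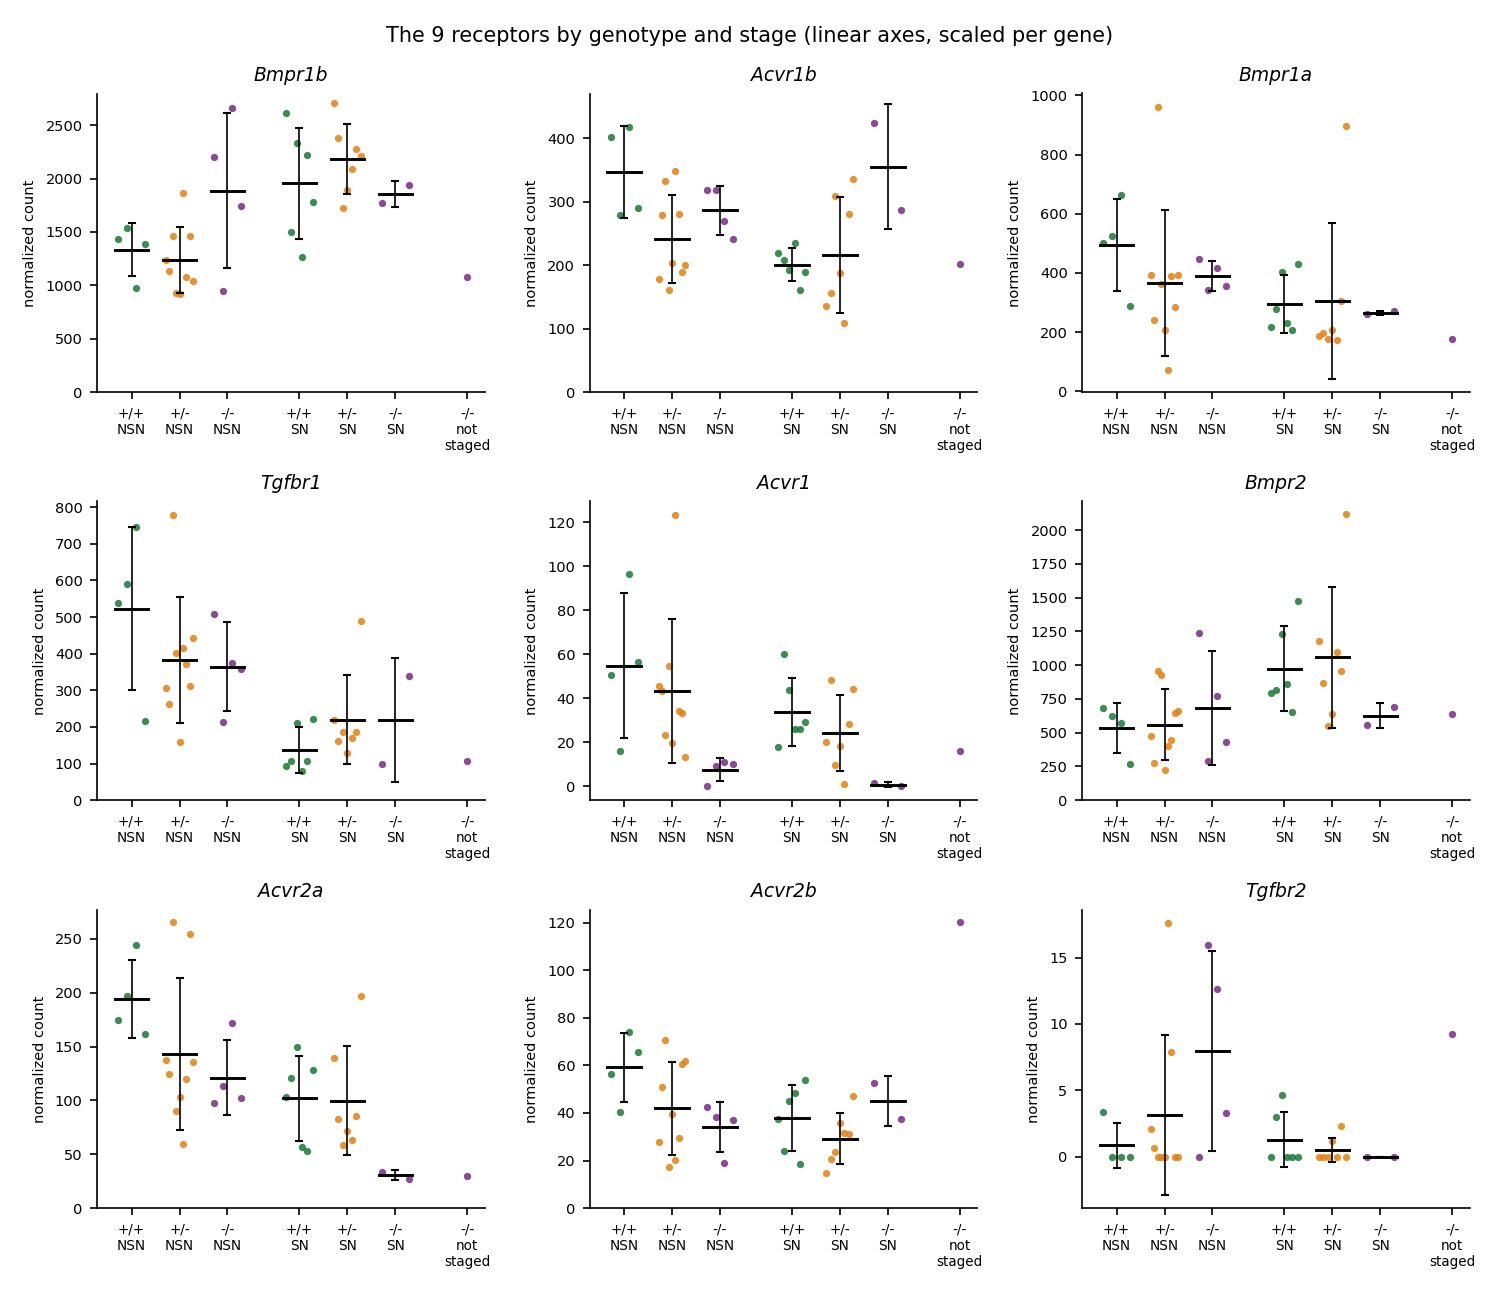
Normalized counts of the 9 receptors (linear axes, different for each gene) with 1 point per oocyte, by Nlrp5 genotype and stage; bars are means and whiskers are SDs over oocytes. Bmpr1b and Bmpr2 have higher means at the SN than at the NSN stage in Nlrp5+/+ and Nlrp5+/-, Tgfbr1 has lower ones in all 3 genotypes, and single Nlrp5+/- oocytes stand far above their groups for Bmpr1a, Tgfbr1 and Bmpr2.

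Receptor abundance also differed between the stages in wild-type oocytes. Tgfbr1 was lower in SN than in NSN Nlrp5+/+ oocytes, with means of 137 ± 62.9 (n = 6) and 523 ± 222 (n = 4) and a log2 difference of -1.92. It was the only receptor of 8 past 2-fold, beside 12.8% of 13576 genes, and its ranges still overlapped, because 1 NSN oocyte had 217. Acvr1b and Acvr2a were lower in every SN oocyte than in any NSN oocyte of this genotype, by -0.78 and -0.92, and 6.07% of genes were lower with no overlap. Acvr1 differed by -0.68, Bmpr1a by -0.75 and Acvr2b by -0.63, each with overlap.

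Bmpr2 and Bmpr1b had higher means at the SN stage, by 0.86 and 0.55 on the log2 scale in Nlrp5+/+ oocytes. The same was true in Nlrp5+/- oocytes, by 0.92 and 0.82, where no receptor of 8 was past 2-fold beside 9.23% of genes. In Nlrp5-/- oocytes the SN and NSN means differed by -0.13 for Bmpr2 and -0.03 for Bmpr1b. Leaving out single oocytes moved these between -0.38 (without oocyte 14) and 0.33 (without oocyte 13) for Bmpr2 and between -0.25 (without oocyte 14) and 0.18 (without oocyte 29) for Bmpr1b, so neither has a direction. The difference between genotypes in this step was not tested.

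In Nlrp5-/- oocytes Acvr2a was lower at the SN stage, with 27.5 and 33.7 normalized counts against 97.8 to 172 at the NSN stage and a log2 difference of -1.95, and Bmpr1a was too, with 260 and 271 against 341 to 449 and a difference of -0.55. These 2 of 7 receptors were lower with no overlap, as were 10.8% of genes in this contrast. Acvr2a was the only one of the 7 receptors tested there that passed 2-fold, beside 14.8% of 13840 genes. Acvr1 averaged under 10 normalized counts over those 6 oocytes and did not enter that count. The Tgfbr1 difference was -0.73, between -1.86 and -0.11 when oocyte 31 or oocyte 7 was left out.

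Some receptors varied together across the 33 oocytes. On the log2 scale Bmpr1a and Acvr2a had Pearson's r = 0.65 and Spearman's rho = 0.71, Bmpr1a and Tgfbr1 r = 0.62 and rho = 0.71, and Tgfbr1 and Acvr2a r = 0.60 and rho = 0.61. Bmpr1b and Bmpr2 had r = 0.57 and rho = 0.56. The lowest pair was Bmpr1b with Acvr2b, at r = -0.41 and rho = -0.42. These points share stage, genotype and depth, and the values describe them only.

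Among 13896 genes with a mean of at least 10 normalized counts over all oocytes, the 5 with the highest Pearson's r with Acvr1 were AC115752.1 (0.85), Fam120b (0.81), Zfp330 (0.78), Mtap (0.76) and Minpp1 (0.76), over n = 33. All 5 had lower means in Nlrp5-/- oocytes at both stages, which is largely built in, since they were picked for likeness to Acvr1 over the same oocytes, and supports nothing. AC115752.1, on chromosome 19, had 1.85 to 11.9 normalized counts in the NSN oocytes without Nlrp5 and 25.5 to 55.8 in those of the wild type. Its log2 differences were -2.59 and -3.31 at the NSN and SN stages. Fam120b, on chromosome 17, differed by -1.48 and -1.82. Zfp330, on chromosome 8, differed by -1.18 and -2.77.

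Mtap, the methylthioadenosine phosphorylase on chromosome 4, differed by -0.96 in NSN and -1.69 in SN oocytes. Minpp1, an inositol polyphosphate phosphatase on chromosome 19, differed by -1.63 and -1.64. By Spearman's rho, 2 of the 5 stayed among the 5 most alike, Fam120b and AC115752.1. Of the other receptors Acvr2a was the most like Acvr1, at r = 0.48 and rho = 0.38, and the rest lay between r = -0.25 and 0.10.

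Few genes next to Acvr1 had enough reads to compare. Of 14 genes with their middle within 1 Mb, 2 passed the filter in each comparison of Nlrp5-/- with Nlrp5+/+ oocytes, and 0 of 2 was past 2-fold at either stage. With no filter there was 1 at the NSN stage, 5330411J11Rik at 1.28, and 2 at the SN stage, 5330411J11Rik at 1.55 and Cytip at -1.27. Without oocyte 7 there was 1 at the SN stage, Ccdc148, which has 3 reads in oocyte 31. Pkp4, which encodes plakophilin 4 and lies from 59160850 to 59355208, had means of 359 normalized counts in Nlrp5-/- and 404 in Nlrp5+/+ NSN oocytes, with 374 and 328 in SN oocytes, for log2 differences of -0.17 and 0.19. Ccdc148, from 58821070 to 59160683, averaged 13.8 and 8.57 at the NSN stage and 14.6 and 16.9 at the SN stage.

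The ligands, partners and targets of these receptors were taken from 5 lists. Of 17 ligand genes, 9 passed the filter at the NSN stage and 3 of them were past 2-fold, all higher in Nlrp5-/- than in Nlrp5+/+ oocytes. For SN oocytes it was 1 of 7, also higher. The medians were 0.49 and 0.14. Among all genes, 4.93% (NSN) and 4.07% (SN) were past 2-fold and higher, while 3.21% (NSN) and 5.99% (SN) were past 2-fold and lower. Of these lists, 2 ligands (Inha and Bmp7) of 8 at the NSN stage and 1 (Inha) of 7 at the SN stage were past 2-fold between Nlrp5+/- and Nlrp5+/+, all higher, beside 2.03% and 1.14% of genes. In Nlrp5-/- against Nlrp5+/- oocytes, 2 ligands of 9 were higher and 1 lower past 2-fold at the NSN stage. At the SN stage 1 of 7 was higher. In either direction, 6.5% (NSN) and 8.91% (SN) of all genes were past 2-fold in that contrast. Some of the genes below passed the filter only through the Nlrp5-/- oocytes, for which a difference is built in, so the counts describe the lists and support no claim about them.

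Inha, the inhibin alpha subunit, had 23.1 to 906 normalized counts in Nlrp5-/- NSN oocytes and 0 to 10.1 in Nlrp5+/+ NSN oocytes, and 57.9 and 476 against 0 to 45.2 at the SN stage. The log2 differences were 5.94 and 4.07, with no overlap at either stage, where 3.96% (NSN) and 7.24% (SN) of genes were higher with no overlap. Inhbb, an activin beta subunit, was at 0 in all 4 Nlrp5+/+ NSN oocytes and had 113 summed counts in Nlrp5-/- NSN oocytes, at least 45.4-fold higher when 3 counts are allowed over the Nlrp5+/+ group. The Nlrp5-/- NSN oocytes ranged from 0 to 65.1 normalized counts of Inhbb, so the groups overlapped at 0. The bound was 11.7-fold without oocyte 14 and 71.7-fold without oocyte 30. Inhba, the other beta subunit, had 4.74 to 73.4 normalized counts in Nlrp5-/- and 8.15 to 32.3 in Nlrp5+/+ NSN oocytes, for a log2 difference of 1.13 with overlap.

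Gdf9, with the most reads of the ligands, had 58811 to 69121 normalized counts in Nlrp5-/- NSN oocytes against 41167 to 54398 in Nlrp5+/+ NSN oocytes. The log2 difference was 0.46 in NSN and 0.39 in SN oocytes, under 2-fold at both stages. At the NSN stage 3.96% of genes were higher with no overlap. Nlrp5+/- NSN oocytes had 45312 to 82064 of Gdf9. Against them the Nlrp5-/- difference was 0.08 with overlap, while that of Nlrp5+/- from Nlrp5+/+ was 0.38.

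Of 15 inhibitors and regulators, 2 of 11 were past 2-fold and higher at the NSN stage and 1 of 10 at the SN stage, with 0 lower at either and medians of -0.13 and -0.06. Against Nlrp5+/- oocytes it was 1 of 10, also higher, for NSN and 0 of 9 for SN, with medians of -0.05 and -0.08. Fst, which encodes the activin-binding protein follistatin, was at 0 in all Nlrp5+/+ NSN oocytes and had 0 to 118 normalized counts in Nlrp5-/- NSN oocytes, at least 86.8-fold higher by summed counts when 3 counts are allowed over the Nlrp5+/+ group, with overlap at 0, and the bound was 27.8-fold without oocyte 14. Its SN values were 2.17 and 58.0 against 0 to 7.79, a log2 difference of 2.81 with overlap. Skil, a SMAD corepressor, had 0.66 to 36.0 against 0 to 8.15 at the NSN stage, a log2 difference of 2.40. Ski, its more abundant relative, had means of 3572 ± 767 in Nlrp5-/- and 3637 ± 920 in Nlrp5+/+ NSN oocytes. At the SN stage Ski had 4922 and 5448 normalized counts against 3024 to 4911, a log2 difference of 0.46 in which the groups only just failed to overlap. Of all genes, 7.24% were higher with no overlap there, so nothing is read from this for Ski.

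Of 8 other receptors and co-receptors, 1 of 3 was past 2-fold at the NSN stage and 1 of 2 at the SN stage, all higher, with medians of 0.20 and 0.81. Against Nlrp5+/- oocytes it was 0 of 2 at both stages, with medians of -0.02 and 0.38. Eng, the co-receptor endoglin, had 11.09 to 27.7 normalized counts in Nlrp5-/- NSN oocytes and 0.94 to 11.06 in Nlrp5+/+ NSN oocytes, a log2 difference of 1.94. The groups only just failed to overlap, and 3.96% of genes were higher with no overlap. Bambi, a pseudoreceptor that lacks the kinase domain, had 20.2 and 54.997 in Nlrp5-/- SN oocytes and 0 to 30.1 in Nlrp5+/+ SN oocytes, a log2 difference of 1.35 with overlap. Tgfbr3, the co-receptor betaglycan and the most abundant of this list, differed by 0.20 and 0.27.

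Of 8 Smad genes 6 passed the filter, with 1 lower and 0 higher past 2-fold at the NSN stage and 0 lower and 1 higher at the SN stage, and medians of -0.30 and 0.06. Against Nlrp5+/- oocytes 1 of 6 was past 2-fold and higher at each stage, with medians of -0.02 and 0.18. Smad9 had 1.85 to 22.1 normalized counts in Nlrp5-/- and 17.8 to 37.7 in Nlrp5+/+ NSN oocytes, a log2 difference of -1.06 with overlap. Smad5, a SMAD of the BMP branch, had 86.4 and 153 in Nlrp5-/- SN oocytes, above the Nlrp5+/+ SN range of 17.2 to 71.7, for a log2 difference of 1.31. In that contrast 7.24% of genes were higher with no overlap. Nlrp5+/- SN oocytes had 21.9 to 87.5 of Smad5, which overlaps the Nlrp5-/- pair. At the NSN stage Smad5 had 162 to 247 in Nlrp5-/- against 114 to 238 in Nlrp5+/+ oocytes, a difference of 0.35. Smad3, the most abundant, differed by 0.29 at both stages.

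Of 7 target genes, 2 of 4 were past 2-fold and higher at the NSN stage and 2 of 3 at the SN stage, with medians of 0.67 and 1.19. Against Nlrp5+/- oocytes 0 of 4 (NSN) and 0 of 3 (SN) were past 2-fold, with medians of 0.50 and 0.66. Id3, a BMP target and also one of the markers from which the stages were inferred, had 287 to 1481 normalized counts in Nlrp5-/- and 249 to 519 in Nlrp5+/+ NSN oocytes, and 125 and 211 against 23.3 to 164 at the SN stage. The log2 differences were 1.03 and 1.30, both with overlap. Id2 differed by 1.19 at the SN stage, with 24.3 and 62.2 against 4.83 to 29.8, and Junb by 1.37 at the NSN stage, with 9.23 to 28.4 against 2.83 to 10.8.

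Several of these pathway calls rested on single oocytes. At the NSN stage Id3 was past 2-fold through Nlrp5-/- oocyte 14, at 1481, and differed by only 0.33 without it; leaving out Nlrp5+/+ oocyte 70 or 78 also took it under 2-fold. Inhba ranged from 0.60 (without oocyte 14) to 1.64 and was under 2-fold without oocyte 13, 14, 78 or 79, and Smad9 was under 2-fold without oocyte 13, 14 or 78, at -0.72 without oocyte 13. At the SN stage, with 2 Nlrp5-/- oocytes, no call other than that of Inha was kept whichever oocyte was left out. Bambi differed by 0.48, Id2 by 0.39, Id3 by 0.88 and Smad5 by 0.84 without oocyte 31, and Fst by -0.49 without oocyte 7. Inha at the SN stage was 1.88 without oocyte 7, 4.90 without oocyte 31 and 4.76 without oocyte 72, and Fst 3.73 without oocyte 31. Inha, Inhbb, Fst, Skil, Eng and Junb at the NSN stage were past 2-fold whichever oocyte was left out, but Inha was 5.03 without oocyte 14, Skil 3.25 without oocyte 79 and Eng 2.91 without oocyte 87.

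Inha, Inhba, Inhbb and Fst are also granulosa markers, and the granulosa list as a whole was high in some of these libraries. The summed abundance of the 16 granulosa markers was 279 to 475 CPM in Nlrp5+/+ oocytes, and only Nlrp5-/- oocytes 14 (672) and 15 (1316) lay above. That sum was carried by markers that wild-type oocytes express as well. Over the 12 markers with a mean under 50 normalized counts in Nlrp5+/+ oocytes, a limit set after the values were seen, the sums were 1.38 to 12.1 CPM in Nlrp5+/+ oocytes, 1.18 to 27.8 in Nlrp5+/- and 9.73 to 908 in Nlrp5-/- oocytes. In Nlrp5+/+ NSN oocytes Amh, Foxl2, Fst and Inhbb were at 0.

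Theca and interstitial markers summed to 4.60 to 22.5 CPM in Nlrp5+/+ oocytes and reached 237 in Nlrp5-/- oocyte 14, 312 in Nlrp5+/- oocyte 61 and 666 in oocyte 15. The stroma, vessel and blood markers summed to 45.9 to 81.1 CPM in Nlrp5+/+ oocytes, 76.4 to 116 in staged Nlrp5-/- oocytes and 260 in oocyte 15. Among NSN oocytes these sums were 45.9 to 75.1 in Nlrp5+/+ and 86.2 to 116 in Nlrp5-/-, with no overlap, while at the SN stage they overlapped. The part of other ovarian cells in the receptor, ligand and inhibitor values was not tested.

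For Acvr1 the measurement could be set beside the markers oocyte by oocyte. Nlrp5-/- oocyte 30, the only one of 7 whose sum over the 12 markers (9.73 CPM) lay within the Nlrp5+/+ range, had 9.89 normalized counts of Acvr1, below every Nlrp5+/+ oocyte. Its theca sum (26.1 CPM) and its stroma, vessel and blood sum (100 CPM) were above the highest Nlrp5+/+ sums, 22.5 and 81.1. Oocyte 30 was thus inside the wild-type range for the 12 granulosa markers only. Nlrp5-/- oocytes 31 and 29, with 14.7 and 18.8 CPM of these markers, had 0 and 11.05 of Acvr1. Oocyte 15, with the highest sum, had the highest Acvr1 of the Nlrp5-/- oocytes. Leaving out the oocytes above the highest Nlrp5+/+ sum removed 3 of 4 Nlrp5-/- NSN and 2 of 2 Nlrp5-/- SN oocytes, so that the NSN log2 difference of -2.36 rests on oocyte 30 alone (n = 1).

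**Figure D4:**
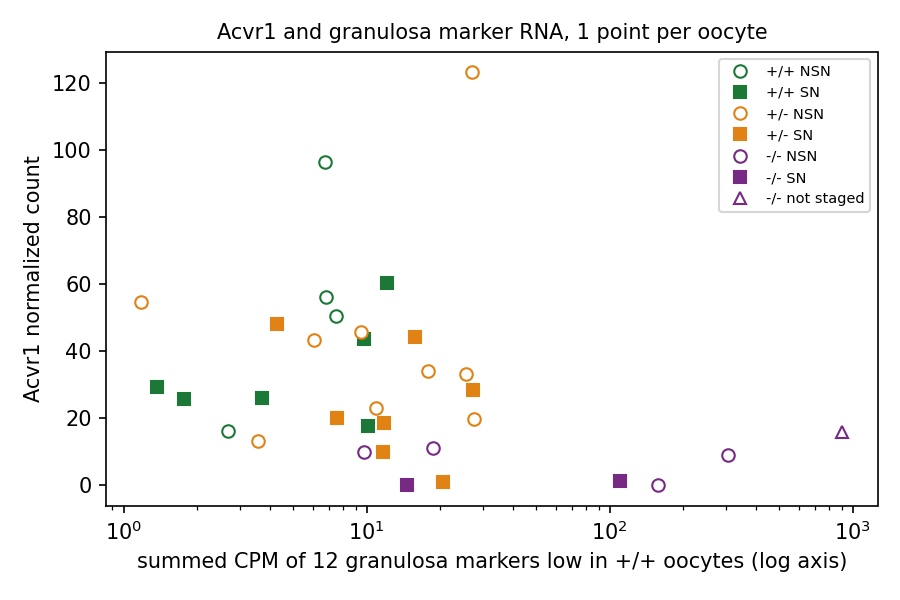
Normalized count of Acvr1 against the summed CPM of the 12 granulosa markers that are low in Nlrp5+/+ oocytes (log axis), with 1 point per oocyte, open circles for NSN, filled squares for SN and a triangle for the unstaged oocyte 15. The 7 Nlrp5-/- oocytes lie between 0 and 15.97 on the Acvr1 axis, from 9.73 CPM of the markers to 908.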

How the data were processed

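Polyadenylated RNA of single GV oocytes was separated from the DNA, amplified by a Smart-seq2-based protocol and sequenced from libraries that do not keep strand. Trim Galore and HISAT2 are the trimmer and aligner that the authors name. They left out libraries of low read number, and the deposited values are a raw read count per gene and oocyte. The counting tool, its strand setting and its annotation release are not given in the sources used here. The table carries GRCm38 coordinates, printed as they stand, while the methods name GRCm39. Of 35373 rows, 52 repeated a gene and were left out. The authors' tables of called genes hold a linear fold change, a p-value and an adjusted p-value for each gene and were not used. A table of read totals per library was also left out, since depth was taken from the counts.

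Genotype came from the labels and stage from the study's staging figures. Counts were divided by median-of-ratios size factors over all 33 oocytes, averaged over the oocytes of a group, and compared on the log2 scale with a pseudocount of 1, keeping genes whose normalized counts averaged 10 or more in the 2 groups. A gene was past 2-fold from a log2 difference of 1. Oocytes of a genotype and stage were treated as 1 sample, since the labels name no mouse, and no test was run. Depth was 4223595 to 15573360 counts per oocyte. Intervals at 95% are exact (Poisson or Clopper-Pearson) and cover counting error only, since amplified reads carry no molecular identifiers; a count of 0 allows up to 3 counts. No 2 oocytes had identical columns. Exon lengths and transcripts were taken from GENCODE for GRCm39, matched by Ensembl ID, with no coordinate converted.

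The receptors and all gene lists were chosen with earlier results of these data known. Genes named are the 9 receptors, Nlrp5, the 5 genes most like Acvr1, genes within 1 Mb of it that passed the filter and, of each pathway list, those past 2-fold between Nlrp5-/- and Nlrp5+/+ oocytes and the most abundant one. Orc4, which overlaps Acvr2a, Bmp7 and the unfiltered genes near Acvr1 were added after their values were seen. Alternatives were scaling by total count, TMM factors, size factors within the oocytes compared, medians, pooled sums, a pseudocount of 5, no filter or a filter of 100, no regard to stage, leaving out Nlrp5+/- oocytes 55 and 61, leaving out oocytes high in granulosa markers, leaving out each oocyte in turn (for the pathway genes and their bounds, added after seeing the data), and Spearman's rho. The calculation was tested on simulated data. Calculations ran in Python (3.11.15) with scipy (1.17.1), numpy (2.4.6) and pandas (2.3.3), and plots in matplotlib (3.10.9).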

Additional observations from a re-analysis of the deposited data

Results flagged for a closer look

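In groups of 4 to 10 oocytes, the highest or lowest receptor value lay far from the others, by Dixon's criterion at 95%, in 8 of 45 combinations of receptor and group. Chance flags about 1 in 20 for normally distributed values, but these counts are skewed and the same oocytes recur, so no excess over chance is read from this number. Of these, 3 were Nlrp5+/- SN oocyte 55, with 895 normalized counts of Bmpr1a (group median 199), 489 of Tgfbr1 (187) and 2118 of Bmpr2 (957). Oocyte 53, which is Nlrp5+/- NSN, had 960 of Bmpr1a (363) and 779 of Tgfbr1 (372). Nlrp5+/- NSN oocyte 61 had 123 of Acvr1 (33.9) and 17.6 of Tgfbr2 (group median 0), and Nlrp5+/+ NSN oocyte 70 had 3.36 of Tgfbr2, from 5 reads (group median 0).

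Acvr1b differed in sign between the stages relative to the Nlrp5+/+ means alone, in that every Nlrp5-/- NSN oocyte lay below the Nlrp5+/+ NSN mean (log2 difference -0.27) and both Nlrp5-/- SN oocytes above the Nlrp5+/+ SN mean (0.82). Against Nlrp5+/- the Acvr1b differences were 0.25 (NSN) and 0.71 (SN), of the same sign. Acvr2b differed between the genotypes in its step from NSN to SN, in that every Nlrp5+/+ SN oocyte lay below the NSN mean (-0.63) and both Nlrp5-/- SN oocytes above theirs (0.39). These differences were not tested.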

How the results depend on the processing

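The log2 difference of Acvr1 between Nlrp5-/- and Nlrp5+/+ oocytes was negative and past 2-fold in 17 of 17 alternatives at the NSN stage and 15 of 15 at the SN stage. At the SN stage it was -2.77 with a pseudocount of 5 and -2.48 without regard to stage, and leaving out single oocytes gave -5.12 to -3.89 (NSN -3.02 to -2.30). Against Nlrp5+/- SN oocytes it was -2.21 without regard to stage and -4.66 to -3.43 without single oocytes. Acvr2a at the SN stage was past 2-fold in 14 of 15 alternatives and -0.75 without regard to stage. The numbers of receptors past 2-fold depended on the filter. With no filter there were 3 in Nlrp5-/- against Nlrp5+/+ SN oocytes (also 3 by medians), 2 in Nlrp5-/- against Nlrp5+/+ NSN oocytes, 2 in Nlrp5-/- against Nlrp5+/- NSN, 1 in Nlrp5+/- against Nlrp5+/+ NSN, and, between stages, 1 in Nlrp5+/- and 3 in Nlrp5-/-, the added one at the NSN stage being Tgfbr2. With a filter of 100 there were 0 in Nlrp5-/- against either genotype at both stages and 0 between stages in Nlrp5-/-. Acvr1 averaged under 100 in all of these, and Acvr2a in the SN comparisons and between stages. At the NSN stage Acvr2a averaged 158 (with Nlrp5+/+) and 137 (with Nlrp5+/-) and passed, but was under 2-fold. Without regard to stage, 1 remained at the SN stage against each genotype. Between stages, Nlrp5+/+ had 2 by total count, medians or pooled sums and 1 to 2 with single oocytes left out (2 without oocyte 77 or 87), and Nlrp5+/- had 1 by medians, 1 without oocytes 55 and 61, 2 without oocytes high in the low granulosa markers (chosen after seeing the data) and 0 to 2 with single oocytes left out (2 without oocyte 55, 1 without 38, 39, 40, 53 or 54). Nlrp5-/- had 1 to 2, with 2 without oocyte 31. Against Nlrp5+/+ SN oocytes Nlrp5-/- had 2 to 3 (3 without oocyte 7 or 31) and against Nlrp5+/- SN oocytes 2 to 3 (3 without oocyte 31), with 1 throughout at the NSN stage. With single oocytes left out, Nlrp5+/- against Nlrp5+/+ had 0 at both stages. Spearman's rho kept 2 of the 5 genes most like Acvr1. Tgfbr2 never passed the filter. By medians its difference was 0 in every comparison that did not hold Nlrp5-/- NSN oocytes, the only staged group with a median above 0 (7.96). Its sign changed without regard to stage, to 1.71 (against Nlrp5+/+ SN) and 1.21 (against Nlrp5+/- SN). For Nlrp5+/- against Nlrp5+/+ NSN it changed to -0.25 without oocytes high in the low granulosa markers. The cause was not tested. Scaling by total count moved the median of all genes between the stages of Nlrp5+/+ by -0.11, and the Acvr2a difference there from -0.92 to -1.02, or -0.95 relative to that median. The other shifts, by total count or TMM, were under 0.1.

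No paired analysis was possible because the labels name no mouse, litter or day shared between genotypes and no test was run. Precision is limited by 2 Nlrp5-/- SN oocytes, by the stages, which rest on the same RNA, and by low counts: Acvr1 had 1118 counts in all 33 oocytes and Tgfbr2 86. At the SN stage a difference of Tgfbr2 between Nlrp5-/- (0 counts) and Nlrp5+/+ (6 counts) was not detectable at this depth.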
